A study of Homo sapiens with 8 samples.

Results

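HOX genes encode homeodomain transcription factors that lie in 4 clusters, HOXA to HOXD, on chromosomes 7, 17, 12 and 2. Genes with the same number in different clusters are paralogs, and the order of the genes along a cluster follows the order in which they are expressed along the head-to-tail axis of the embryo. Neural crest cells, from which neuroblastoma arises, carry a HOX pattern that depends on the level at which they left the neural tube, with low paralog numbers in cranial and higher numbers in trunk crest. HOX proteins bind DNA together with TALE cofactors of the PBX and MEIS families, and their clusters are classical targets of Polycomb repression and of retinoic acid. The members described here were all genes with a HOXA, HOXB, HOXC or HOXD symbol and a number, without antisense transcripts. They were 39 of the 31426 gene symbols on the array, measured by 54 probes, and 39 of 39 are current RefSeq symbols. HOXA held 11 genes, HOXB 10, HOXC 9 and HOXD 9. For 30 genes there was 1 probe. For the other 9 the probe brightest on average was taken, and of the 15 probes thereby left aside 3 were detected on any array.

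RNA was profiled on 8 Illumina HumanHT-12 v4 bead arrays, 2 for each of 4 groups. SH-SY5Y is a neuroblastic and SH-EP2 an epithelial-like human neuroblastoma cell line, and both are known as subclones of the SK-N-SH line, which came from a single tumor. Cells of each line were stably transduced with a pLKO lentivirus carrying an shRNA against TRPM7, a cation channel with a kinase domain, or a scrambled shRNA as control, and were selected with puromycin. All groups therefore carried a lentiviral shRNA, a single TRPM7 shRNA sequence was used on the arrays, and the cells were transduced pools with no clone named in the labels. The comparisons were TRPM7 shRNA against control within each line, the difference of this effect between the lines, and SH-EP2 against SH-SY5Y at baseline and with the TRPM7 shRNA. Per the labels all cells grew in one medium, while the methods of the study give DMEM for SH-EP2 and DMEM/F12 for SH-SY5Y, so that line and medium cannot be told apart.

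Median array signals lay between 104.7 and 119.9, and 40.8% to 44.2% of probes were detected, which here means a signal above the negative control beads at a detection p under 0.05. Over 13 noradrenergic markers, which mark the neuroblastic state, the median log2 signal was 10.88 for SH-SY5Y and 2.76 for SH-EP2 control cells, and 8 of 13 were detected on neither array of the latter. The 12 mesenchymal markers had a median of 4.89 in SH-SY5Y and 11.26 in SH-EP2 control cells, with 1 of 12 undetected in SH-EP2. No epithelial markers were read, so that the epithelial-like label of SH-EP2 was not checked. TRPM7 itself was read by 1 probe, which was detected on none of the 8 arrays (log2 signal 2.46 to 3.02). The knockdown could therefore not be read from these arrays. The study measured TRPM7 mRNA in both lines by quantitative RT-PCR, which is not part of these data.

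All values are log2 signals after background correction and quantile normalization, and differences are differences of these values. A gene was called when limma gave an adjusted p under 0.05 (Benjamini-Hochberg over all 47322 probes, two-sided). Where a gene was detected on neither array of its dimmer group, the fold is written "at least". It is a lower bound against the lowest detected signal, and it holds only under this background correction. With other processing the log2 difference between the control lines was as small as 2.77 for HOXB2 (7.28 here). For HOXA5 it was as small as 1.11 (5.07 here). Folds without "at least" shrank too, with differences as small as 2.1 for HOXB5 (5.37 here) and 0.65 for HOXD10 (2.48 here). The 2 arrays of a group are not said to be separate cultures, so that the p-values measure the spread between these arrays, which may be technical. A lower signal in a culture can reflect fewer expressing cells or less RNA per cell, which bulk RNA does not tell apart.

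The promoter sequences of 4 genes, picked from the called genes that had an annotated window, are shown first. They are the 250 bases before the start site in the RefSeq annotation of GRCh38.p14, 5′ to 3′ on the strand of the gene, and capitals mark every match to 6 motifs on either strand. The motifs were TATAAA (the TATA box), the CCAAT box, the GC box GGGCGG, the sequence AGGTCA (a nuclear receptor half-site), TGATNNAT (the core of PBX-HOX sites) and TGACAG (the core of MEIS sites), and no 2 matches overlapped in these windows. HOXA2 (chr7:27102684-27102933, minus strand) and HOXD1 (chr2:176188418-176188667, plus strand) fell with the TRPM7 shRNA in SH-EP2 cells. The window of HOXC4 (chr12:54016638-54016887, plus strand) is also the window listed for HOXC5, and both genes were lower in SH-EP2 than in SH-SY5Y control cells. HOXD11 (chr2:176107030-176107279, plus strand) was higher in SH-EP2.
HOXA2: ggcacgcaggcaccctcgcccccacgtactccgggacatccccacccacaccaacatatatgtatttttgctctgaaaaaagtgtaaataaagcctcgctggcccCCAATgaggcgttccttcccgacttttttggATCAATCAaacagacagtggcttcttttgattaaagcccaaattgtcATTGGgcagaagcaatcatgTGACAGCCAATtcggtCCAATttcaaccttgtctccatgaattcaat
HOXD1: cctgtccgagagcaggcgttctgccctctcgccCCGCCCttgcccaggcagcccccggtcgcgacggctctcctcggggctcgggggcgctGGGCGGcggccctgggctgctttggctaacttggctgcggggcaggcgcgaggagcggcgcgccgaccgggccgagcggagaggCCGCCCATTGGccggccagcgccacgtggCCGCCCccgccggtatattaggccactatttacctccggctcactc
HOXC4: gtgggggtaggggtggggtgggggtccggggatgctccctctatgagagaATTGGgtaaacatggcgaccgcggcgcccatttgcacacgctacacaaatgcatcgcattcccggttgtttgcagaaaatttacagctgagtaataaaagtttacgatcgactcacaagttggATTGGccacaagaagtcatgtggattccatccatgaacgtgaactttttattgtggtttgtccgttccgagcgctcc
HOXD11: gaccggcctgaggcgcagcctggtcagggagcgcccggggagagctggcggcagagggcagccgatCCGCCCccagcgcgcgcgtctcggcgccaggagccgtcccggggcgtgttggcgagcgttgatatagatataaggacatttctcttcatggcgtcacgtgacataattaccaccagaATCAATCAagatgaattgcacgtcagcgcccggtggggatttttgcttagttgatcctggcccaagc

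The promoters of HOXA2 and HOXD1 differed in these letters. The HOXA2 window held 4 CCAAT, 1 TGATNNAT and 1 TGACAG match and no GC box, and the HOXD1 window held 4 GC boxes and 1 CCAAT. The annotation table gave 27 windows for 20 of the 39 HOX genes, of which 16 were from HOXA, with 7 of HOXA3 alone, 1 was from HOXB, and 1 was counted for both HOXC4 and HOXC5. HOXA5, HOXB2 to HOXB8, HOXC6, HOXC8 and HOXC13 had no window, so that the shares describe the listed windows and not all HOX genes. Of these windows, 18 of the 27 held CCAAT (66.7%), beside 32% of all 35116 promoters of this length. GGGCGG was held by 48.1% of the HOX windows and 42.6% of all promoters, TATAAA by 18.5% and 10.7%, TGATNNAT by 11.1% and 6.47%, and TGACAG by 7.41% and 13%. AGGTCA was in 0 of the 27 windows and in 12.1% of all promoters. A HOX window held a median of 19 CG dinucleotides, beside 11 over all promoters. These matches describe letters in a window and were not tested as binding sites.

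HOX expression was read most often from HOXC and HOXD in SH-SY5Y cells and from HOXB as well in SH-EP2 cells. In SH-SY5Y control cells 12 of the 39 genes were detected on both arrays, of which 6 lie in HOXC, 5 in HOXD, 1 in HOXA and 0 in HOXB. In SH-EP2 control cells 21 were detected on both arrays, with 7 in HOXD, 6 in HOXB, 5 in HOXC and 3 in HOXA. With the TRPM7 shRNA the numbers were 11 in SH-SY5Y and 18 in SH-EP2 cells. Over all genes of the array, 41.9% to 44.3% were detected on both arrays of a group.

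A shared set of 11 genes was detected on all 8 arrays. It held HOXA6, HOXC4, HOXC6, HOXC8, HOXC9, HOXC13, HOXD3, HOXD8, HOXD9, HOXD10 and HOXD11. In the axial code HOXC6, HOXC8 and HOXC9 mark thoracic levels, and the HOXD genes from HOXD9 on pattern lumbosacral levels and limbs. Another 5 genes, HOXA5, HOXB2, HOXB4, HOXB7 and HOXB8, were detected on all 4 SH-EP2 arrays and on no SH-SY5Y array. HOXC5 went the other way, with detection on 3 SH-SY5Y arrays and on no SH-EP2 array. A further 11 genes were detected on no array, among them HOXA9, HOXA10, HOXA11 and HOXB9, and 11 were mixed.

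**Figure D1:**
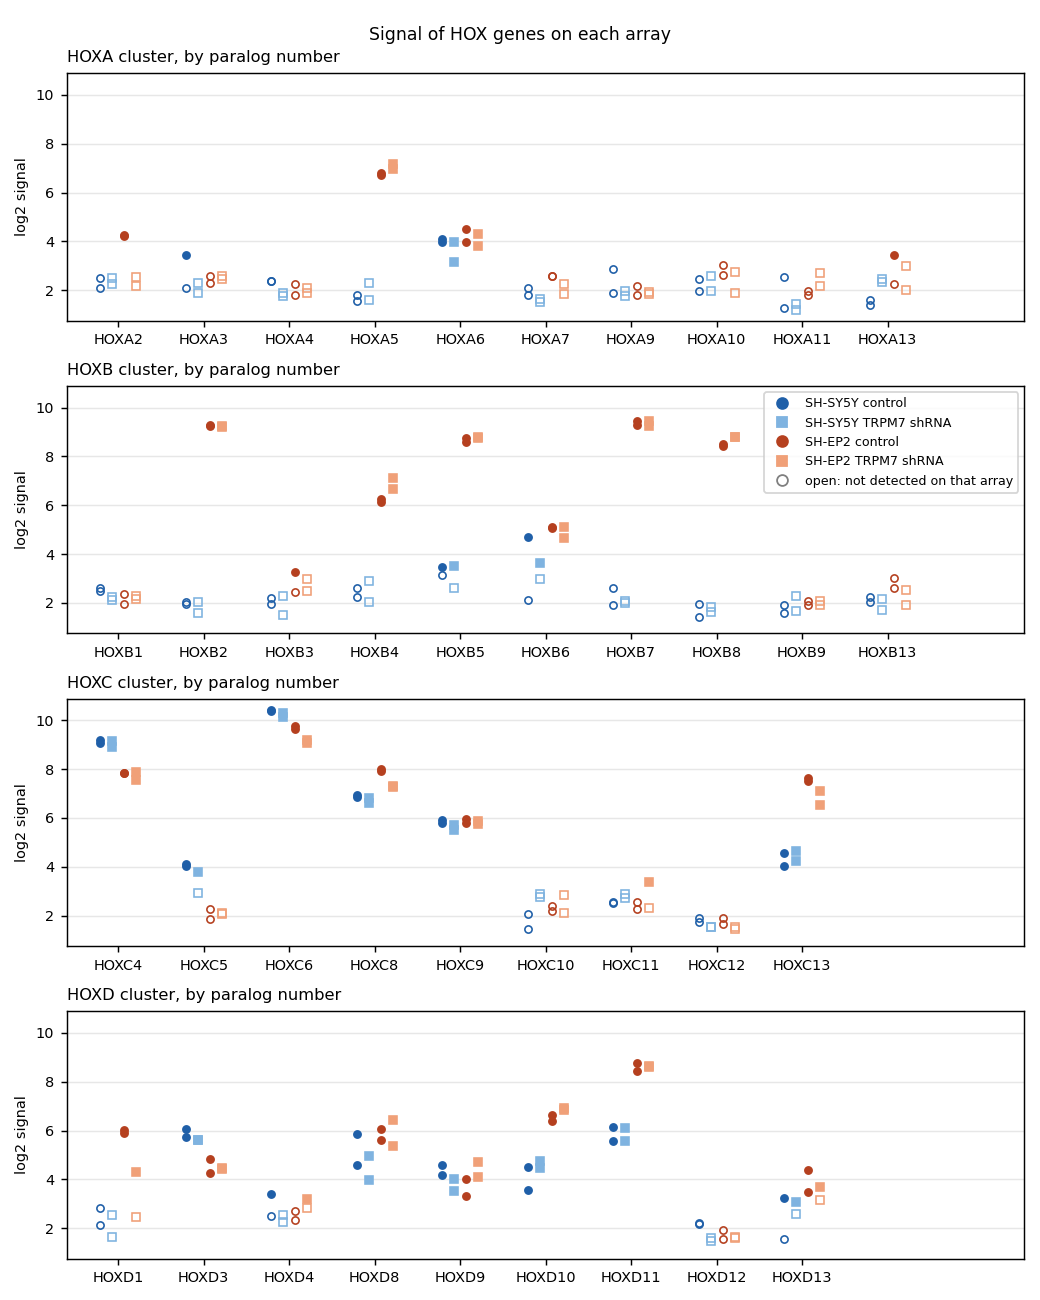
Log2 signal of HOX genes on each of the 8 arrays, by cluster and paralog number, with color and shape for the group, 2 points per group and open symbols where the probe was not detected on that array. In HOXB, the SH-EP2 arrays of HOXB2, HOXB4, HOXB5, HOXB7 and HOXB8 are detected and lie above all SH-SY5Y arrays, while HOXC4, HOXC5, HOXC6 and HOXD3 lie higher on SH-SY5Y control arrays.

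SH-EP2 and SH-SY5Y control cells differed most in HOXB. Of the 39 genes 19 were called, 15 higher and 4 lower in SH-EP2, where 30.1% of all genes were called, 14.2% higher and 16% lower. By cluster, 6 of 10 HOXB genes, 4 of 9 HOXD, 3 of 11 HOXA and 2 of 9 HOXC genes were higher in SH-EP2, and 3 HOXC genes and 1 HOXD gene were lower. The median difference (SH-EP2 minus SH-SY5Y) was 0.61 over the 39 genes and 2.71 over HOXB, beside -0.02 over all genes.

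HOXB2, which patterns the hindbrain, had log2 signals of 2.02 and 1.94 on the SH-SY5Y control arrays and 9.23 and 9.28 on the SH-EP2 control arrays. The difference was 7.28 (SE 0.23, adjusted p = 1.9e-15 by limma), at least 68.4-fold. Neither SH-SY5Y array was detected, and the groups lay far apart.

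HOXB7, a thoracic gene, read 2.61 and 1.92 in SH-SY5Y and 9.45 and 9.28 in SH-EP2 control cells. HOXB8, its neighbor, read 1.41 and 1.94 in SH-SY5Y and 8.52 and 8.44 in SH-EP2 control cells. Both were undetected in SH-SY5Y and detected on both SH-EP2 arrays, with no overlap. The differences were 7.10 for HOXB7 (SE 0.24, adjusted p = 5.18e-15, at least 73.8-fold) and 6.81 for HOXB8 (SE 0.27, adjusted p = 4.64e-14, at least 40-fold).

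HOXB5, which acts in enteric neural crest development, read 3.46 and 3.14 in SH-SY5Y, the former detected, and 8.74 and 8.60 in SH-EP2 control cells, 41.3-fold higher (difference 5.37, SE 0.25, adjusted p = 8.45e-13). HOXB4 read 2.63 and 2.25 in SH-SY5Y and 6.26 and 6.13 in SH-EP2, a difference of 3.76 (SE 0.35, adjusted p = 3.52e-08, at least 8.22-fold). HOXB4 was undetected on both SH-SY5Y arrays. A HOXB6 probe left aside, detected on both SH-EP2 and on neither SH-SY5Y control array, differed by 2.43 (adjusted p = 0.00123 by limma). Another HOXB6 probe, detected on no array, differed by 0.10. The brightest HOXB6 probe read 2.13 and 4.69 in SH-SY5Y, where only the second array was detected, and 5.11 and 5.06 in SH-EP2. Its difference of 1.67 (adjusted p = 0.0294) ranged from 0.39 to 2.97 with 1 array left out, and it was lost without SH-SY5Y control replicate 1 and without either SH-EP2 control array.

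The raised HOXB genes thus ran from HOXB2 to HOXB8 with HOXB3 as the exception and HOXB6 as the gene called least firmly. HOXB3 differed by 0.78 (95% interval -0.16 to 1.71) and was detected on 1 SH-EP2 control array. At the ends of the cluster HOXB1 (-0.38), HOXB9 (0.25) and HOXB13 (0.67) were detected on no array and were not called.

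In HOXA the largest difference was that of HOXA5, which patterns the cervicothoracic boundary and the lung. HOXA5 read 1.57 and 1.79 in SH-SY5Y, undetected, and 6.79 and 6.72 in SH-EP2 control cells, at least 12.1-fold higher (difference 5.07, SE 0.34, adjusted p = 2.88e-10). Its neighbors HOXA4 (-0.37) and HOXA6 (0.22) were not called. HOXA6 was detected on all 8 arrays, with log2 signals from 3.16 to 4.50. HOXA2, a gene of the hindbrain and the second branchial arch, read 2.5 and 2.11 in SH-SY5Y and 4.23 and 4.27 in SH-EP2 control cells, at least 2.13-fold higher (difference 1.94, adjusted p = 0.00269). HOXA13 was also called (1.35, adjusted p = 0.0346) but was detected on 1 SH-EP2 control array and on no SH-SY5Y control array.

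HOXC split along its length. HOXC4 read 9.21 and 9.05 in SH-SY5Y and 7.82 on both SH-EP2 control arrays, 2.48-fold lower in SH-EP2 (difference -1.31, SE 0.13, adjusted p = 9.48e-08). HOXC5 (-2.01, adjusted p = 0.00278, at least 1.78-fold) and HOXC6 (-0.71, adjusted p = 4.72e-06, 1.64-fold) were lower in SH-EP2 as well. The probes left aside for HOXC4 (0.28) and HOXC6 (-0.13 to 0.25) were undetected on the control arrays. With the mean over all probes of a gene, HOXC4 and HOXC6 were not called. HOXC8 was 2.09-fold higher in SH-EP2 (1.07, adjusted p = 7.77e-06), and HOXC9 differed by 0.01 (95% interval -0.43 to 0.46).

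HOXC13, a gene of hair follicles and nails at the far end of the cluster, read 4.58 and 4.03 in SH-SY5Y and 7.63 and 7.51 in SH-EP2 control cells. It was 9.63-fold higher in SH-EP2 (difference 3.27, SE 0.25, adjusted p = 2.18e-09). HOXC10, HOXC11 and HOXC12, which lie between HOXC9 and HOXC13, were detected on none of the 4 control arrays and were not called.

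In HOXD the genes with called differences stood at both ends. HOXD1, an anterior gene known from nociceptive neurons, read 2.83 and 2.14 in SH-SY5Y, undetected, and 6.02 and 5.89 in SH-EP2 control cells, at least 6.94-fold higher (difference 3.47, SE 0.56, adjusted p = 4.66e-05). HOXD3, the next gene, was 2.52-fold lower in SH-EP2, with 5.73 and 6.06 in SH-SY5Y and 4.27 and 4.85 in SH-EP2 control cells (difference -1.33, SE 0.28, adjusted p = 0.000686). These 2 neighbors therefore differed in opposite directions.

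HOXD10 and HOXD11, which pattern limbs and the lumbosacral trunk, were 5.57-fold and 6.74-fold higher in SH-EP2. HOXD10 read 3.56 and 4.49 in SH-SY5Y and 6.38 and 6.63 in SH-EP2 control cells (difference 2.48, SE 0.28, adjusted p = 4.68e-07). HOXD11 read 6.15 and 5.57 in SH-SY5Y and 8.78 and 8.44 in SH-EP2 control cells (difference 2.75, SE 0.20, adjusted p = 8.76e-10). HOXD13 was just past the threshold (1.54, adjusted p = 0.0498), and HOXD4, HOXD8, HOXD9 and HOXD12 were not called.

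The line difference was measured again on the 4 TRPM7 shRNA arrays, which share no array with the control comparison. The comparisons used the same lines, a joint normalization and a shared estimate of the spread, so that they are not independent repeats. There 16 genes were called, 13 higher and 3 lower in SH-EP2, where 29.9% of all genes were called, 14.2% higher and 15.7% lower. In both comparisons 14 genes were called, all 14 in the same direction. Among them HOXB6 (1.58, adjusted p = 0.0409 by limma) lost the call with median scaling and with the neqc background correction. HOXB2 (7.42), HOXB7 (7.31), HOXB8 (7.06), HOXB5 (5.71), HOXA5 (5.13) and HOXB4 (4.41) were again higher, and HOXC4 (-1.30), HOXD3 (-1.17) and HOXC6 (-1.09) were again lower in SH-EP2.

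Called in control cells alone were 5 genes. HOXA2 differed by -0.01 and HOXD1 by 1.28 between the TRPM7 shRNA lines, and the others were HOXA13, HOXC5 and HOXD13. Called in TRPM7 shRNA cells alone were HOXD8 (1.44, adjusted p = 0.00881) and HOXA11 (1.12), which was detected on no array. That a gene passed in one comparison and not in the other was tested only through the interaction reported further on.

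**Figure D2:**
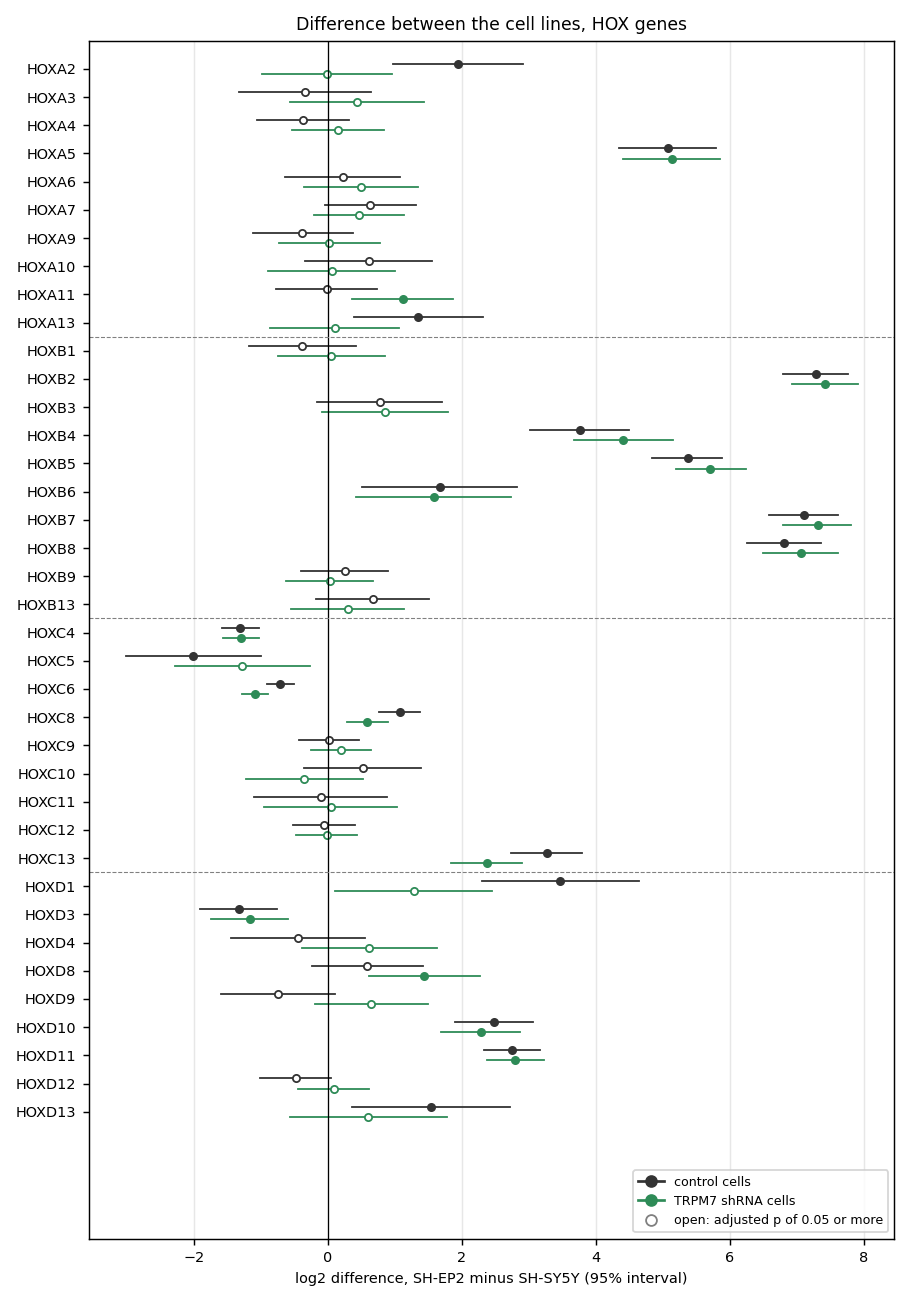
Difference in log2 signal between the lines (SH-EP2 minus SH-SY5Y) for HOX genes, in control cells and in TRPM7 shRNA cells, with 95% intervals and filled points at an adjusted p under 0.05. HOXB2, HOXB7 and HOXB8 lie near 7 in both comparisons, and HOXA2 and HOXD1 are filled in control cells and open in TRPM7 shRNA cells.

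The genes around the clusters served as neighbors for comparison. Of the 3 protein-coding genes beyond each end of each cluster, 23 of 24 were measured. In control cells 13 of the 23 were called, 7 higher and 6 lower in SH-EP2 (56.5%, beside 30.1% of all genes). On both SH-EP2 control arrays 19 of the 23 were detected, beside 41.9% of all genes, so these shares do not compare like sets. The differences of the 23 ranged from -1.70 to 2.94. HIBADH beyond HOXA13 was 2.15-fold higher (11.27 against 10.16), and CBX1 beyond HOXB1 was 2.23-fold lower in SH-EP2. The genes next to the HOXB cluster, SKAP1 beyond HOXB1 (-0.07) and TTLL6 beyond HOXB13 (0.14), were detected on no array of either control group. CALCOCO2, one gene further, was 7.70-fold higher (2.94, adjusted p = 5.48e-07), with 1 SH-SY5Y control array detected.

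**Figure D3:**
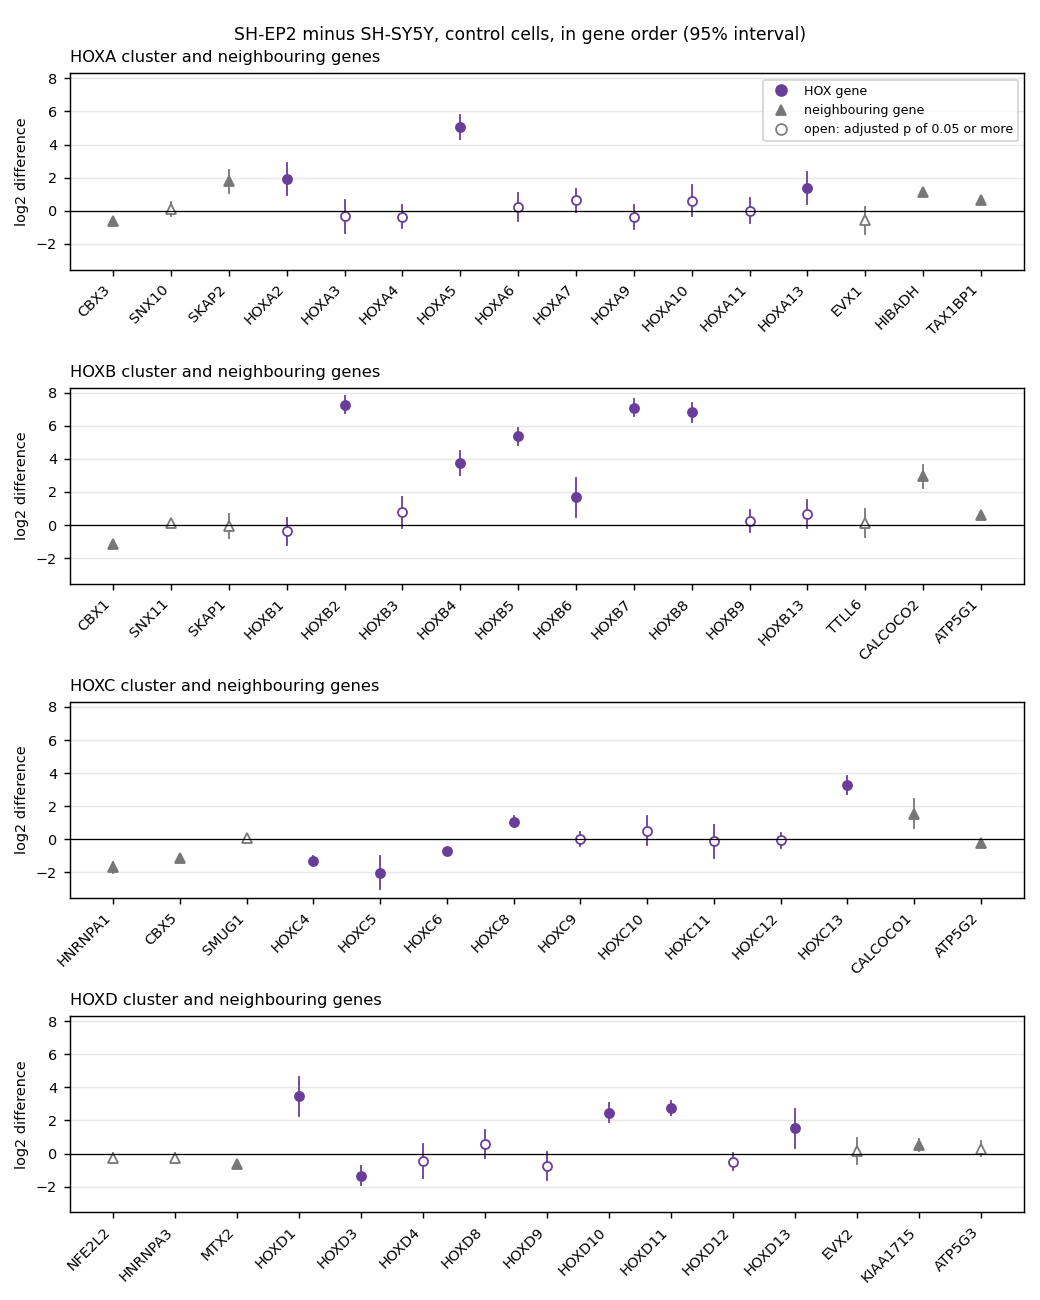
Difference between SH-EP2 and SH-SY5Y control cells (log2, 95% intervals) for genes of each HOX cluster in order of paralog number and for the 3 protein-coding genes beyond each end (triangles), with filled symbols at an adjusted p under 0.05. Neighboring genes lie between -1.70 and 2.94, and 5 HOX genes lie above 5.

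Other transcripts of the clusters differed between the lines too. HOTAIR, a long noncoding RNA of the HOXC cluster, read 6.08 on both SH-SY5Y control arrays and 3.45 and 2.52 in SH-EP2 control cells, 8.54-fold lower in SH-EP2 (difference -3.09, SE 0.38, adjusted p = 1.76e-06). HOXA11AS, antisense to HOXA11, read 1.68 and 2.05 in SH-SY5Y, undetected, and 6.15 and 5.84 in SH-EP2, at least 7.15-fold higher (difference 4.13, SE 0.40, adjusted p = 5.02e-08). The antisense transcript was thus detected on all 4 SH-EP2 arrays and HOXA11 on none. The probes labelled MIR10A, MIR10B, MIR196A1, MIR196A2, MIR196B and PRAC were detected on no array.

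In SH-SY5Y cells no HOX gene was called with the TRPM7 shRNA. The count was 0 of 39, where 2.58% of all genes were called, so that 0 in a list of this size is near the background. The changes ranged from -0.79 for HOXD8 to 1.07 for HOXC10, with a median of -0.22 beside 0 over all genes. At an unadjusted p under 0.05 there were 2 of 39, where 12.7% of all genes passed. These were HOXC10 (1.07, adjusted p = 0.293) and HOXD12 (-0.68, adjusted p = 0.256), both detected on no SH-SY5Y array. Among genes detected on all arrays, the 95% interval was narrow for HOXC4 (-0.38 to 0.17) and HOXC6 (-0.38 to 0.02) and wide for HOXD8 (-1.62 to 0.04).

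In SH-EP2 cells 4 HOX genes were called with the TRPM7 shRNA, and these 4 were lower. Over all genes 3.68% were called, 1.83% higher and 1.85% lower. The median change was -0.07 over the 39 genes and 0.01 over all genes. The 4 were HOXA2, HOXC6, HOXC8 and HOXD1, and they lie in 3 clusters. In the same comparison 1 of 12 mesenchymal markers rose and 2 fell, with group medians of 11.26 and 11.36. Of 13 noradrenergic markers 1 rose and 2 fell, and 1 of these 2 was detected on no SH-EP2 array. The part of these markers in the HOX values was not tested.

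HOXC6, which marks the upper thoracic level, read 9.75 and 9.63 on the SH-EP2 control arrays and 9.08 and 9.18 with the TRPM7 shRNA. The groups did not overlap, and the gene fell by 0.56 (SE 0.095, adjusted p = 0.00142, 1.47-fold). With 1 array left out the change ranged from -0.62 to -0.49. The call was lost when the variance prior did not follow intensity and by a test per probe without a prior. It was also lost with the mean over all probes of the gene. The smallest change in any alternative was -0.16. In SH-SY5Y cells it read 10.43 and 10.37 in control and 10.15 and 10.30 in TRPM7 shRNA cells (-0.18, adjusted p = 0.511). The other 3 HOXC6 probes were undetected in SH-EP2 control cells, and their changes in SH-EP2 ran from -0.31 to 0.39.

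HOXC8, its neighbor and also a thoracic gene, read 7.91 and 8.01 in control and 7.28 and 7.32 in TRPM7 shRNA SH-EP2 cells. It fell by 0.66 (SE 0.15, adjusted p = 0.0147, 1.58-fold), and the groups did not overlap. In SH-SY5Y it read 6.86 and 6.93 in control and 6.80 and 6.63 in TRPM7 shRNA cells (-0.18, adjusted p = 0.740). HOXC8 was not called when any single SH-EP2 array was left out, with changes from -0.71 to -0.61.

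HOXA2 read 4.23 and 4.27 in control SH-EP2 cells and 2.55 and 2.19 with the TRPM7 shRNA, where neither array was detected. It fell by 1.87 (SE 0.46, adjusted p = 0.0292), at least 2.10-fold. HOXA2 was also undetected on the SH-SY5Y arrays, which read 2.11 to 2.5. A separate HOXA2 probe was detected on no array and changed by -0.07, and the call was lost when any SH-EP2 array was left out.

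HOXD1 read 6.02 and 5.89 in control SH-EP2 cells and 4.31 and 2.44 with the TRPM7 shRNA, the latter undetected. It fell by 2.58 (SE 0.56, adjusted p = 0.0112 by limma, 5.97-fold). With other processing the change was as small as -0.52, and the fold takes in the undetected array. The arrays of the TRPM7 shRNA group stood far apart, and the change was -3.52 without TRPM7 shRNA replicate 1 and -1.65 without replicate 2. The call was lost without TRPM7 shRNA replicate 2 and without either control array.

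Of the genes beside these 4, HOXA3 changed by 0.10, HOXC5 by 0.03, HOXC9 by -0.07 and HOXD3 by -0.12, none of them called. HOXC13 read 7.63 and 7.51 in control and 6.52 and 7.09 in TRPM7 shRNA SH-EP2 cells (-0.77, adjusted p = 0.136). The HOXB genes that set SH-EP2 apart, HOXB2 and HOXB4 to HOXB8, changed by -0.19 to 0.69 with the TRPM7 shRNA, with 95% intervals between -1.35 and 1.43 and adjusted p-values of 0.445 or more. Of these HOXB4 read 6.26 and 6.13 in control and 7.11 and 6.66 in TRPM7 shRNA cells (0.69). HOXB2 read 9.23 and 9.28 in control and 9.23 and 9.21 in TRPM7 shRNA cells.

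**Figure D4:**
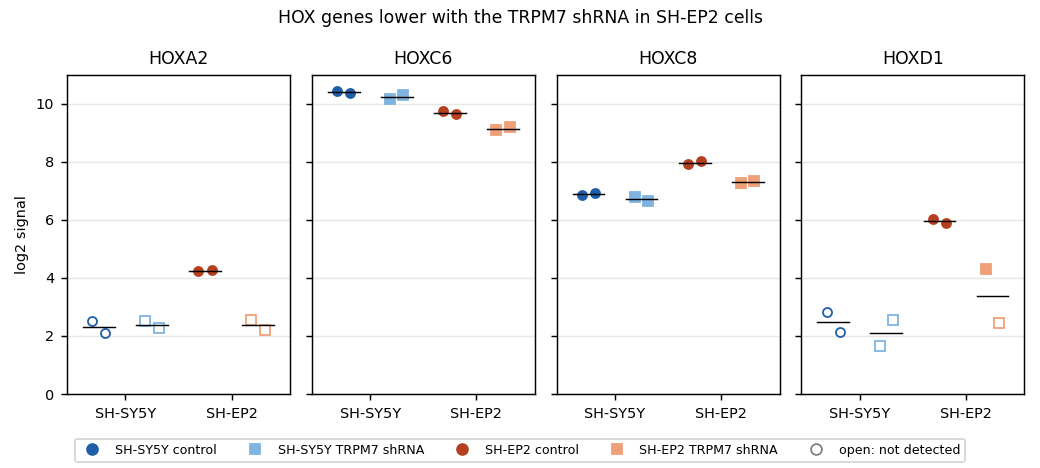
Log2 signal on each array of the 4 HOX genes called with the TRPM7 shRNA in SH-EP2 cells, with bars at the group means and open symbols where the probe was not detected. HOXC6 and HOXC8 are detected on all 8 arrays, HOXA2 is detected on the SH-EP2 control arrays only, and the 2 SH-EP2 TRPM7 shRNA arrays of HOXD1 lie at 4.31 and 2.44.

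Whether the effect differed between the lines was tested as an interaction (effect in SH-SY5Y minus that in SH-EP2). The count was 0 of 39, where 1.78% of all genes were called, so that 0 is near the background here too. At an unadjusted p under 0.05 there were 7 of 39, where 11.4% of all genes passed, and these were HOXA2, HOXA11, HOXC6, HOXC8, HOXC13, HOXD1 and HOXD9. The estimate was 1.95 for HOXA2 (95% interval 0.58 to 3.32, adjusted p = 0.216), 2.19 for HOXD1 (0.54 to 3.84, adjusted p = 0.272), 0.38 for HOXC6 (0.10 to 0.66, adjusted p = 0.264) and 0.48 for HOXC8 (0.04 to 0.92, adjusted p = 0.422). The 4 genes called in SH-EP2 were therefore not shown to respond differently in SH-SY5Y. HOXA2 and HOXD1 were detected on no SH-SY5Y array.

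**Figure D5:**
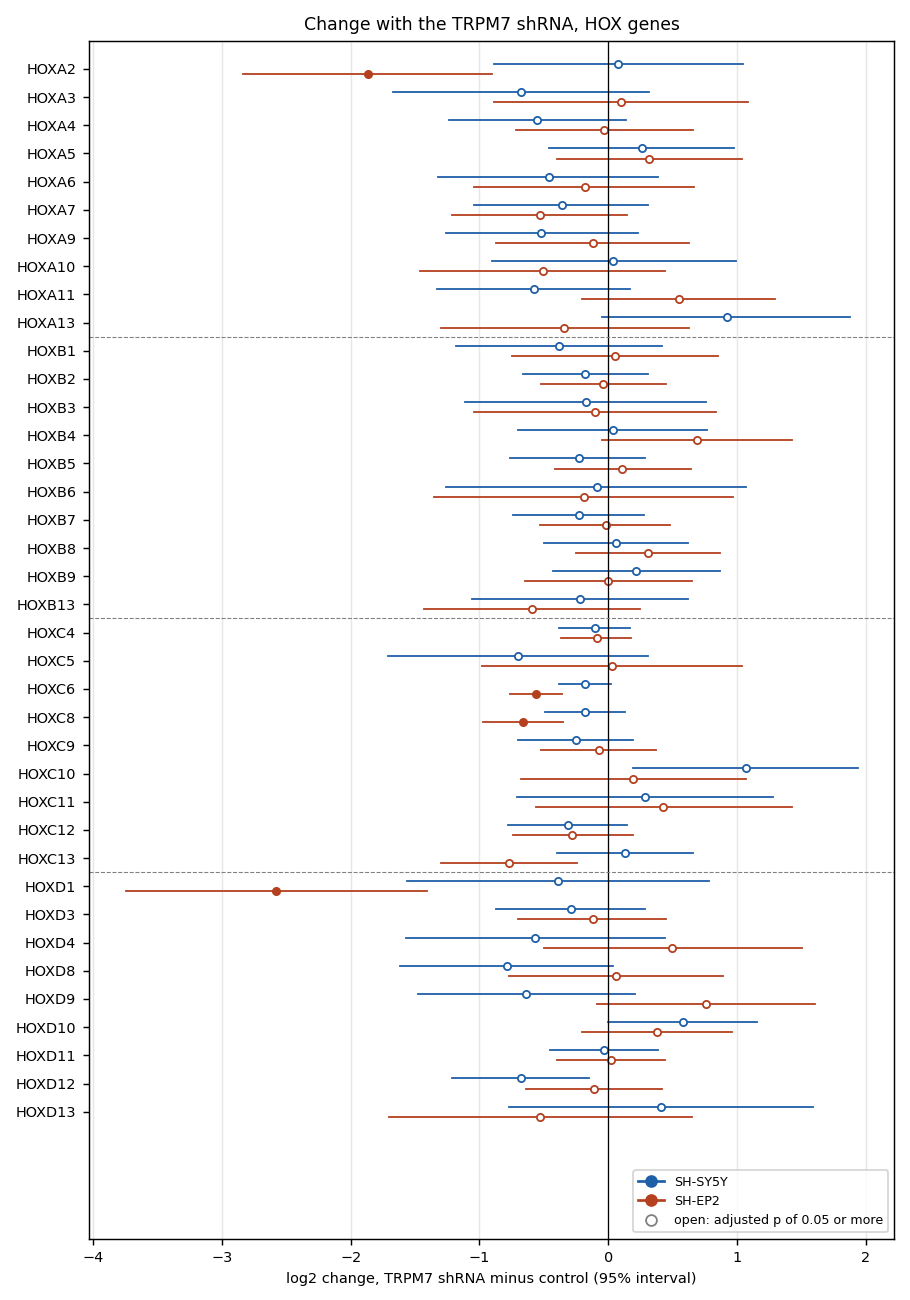
Change in log2 signal with the TRPM7 shRNA for HOX genes in SH-SY5Y and in SH-EP2 cells, with 95% intervals and filled points at an adjusted p under 0.05. The filled points are HOXA2, HOXC6, HOXC8 and HOXD1 in SH-EP2, and no point is filled in SH-SY5Y.

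Partners and regulators of HOX proteins were read from lists chosen by function. The 11 TALE genes listed were PBX and MEIS cofactors together with PKNOX and TGIF genes. The TGIF genes are not read here as HOX cofactors. With the TRPM7 shRNA in SH-EP2, MEIS3 fell by 1.09 (adjusted p = 0.0445) and TGIF2 rose by 0.71 (adjusted p = 0.00107) by limma. In that comparison 3.68% of all genes were called. The effect on MEIS3 differed from that in SH-SY5Y (1.84, adjusted p = 0.0237), a test that 1.78% of all genes passed. Between the control lines 5 TALE genes were lower and 1 was higher in SH-EP2, beside 16% and 14.2% of all genes, with MEIS2 4.84-fold, MEIS1 4.39-fold and PBX3 3.70-fold lower.

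Of 23 Polycomb genes 0 were called with the TRPM7 shRNA in either line or in the interaction, and of 16 measured Trithorax genes likewise 0. Over all genes the shares called were 2.58% in SH-SY5Y, 3.68% in SH-EP2 and 1.78% in the interaction, so that counts of 0 in lists of this size are near the background. At an unadjusted p under 0.05, 4 Polycomb genes passed in SH-SY5Y, 4 in SH-EP2 and 1 in the interaction, and 0, 2 and 1 Trithorax genes, where 12.7%, 14% and 11.4% of all genes passed. Between the control lines 13 Polycomb genes were lower and 4 higher in SH-EP2, beside 16% and 14.2% of all genes. On both SH-EP2 control arrays 20 of 23 Polycomb, 13 of 16 Trithorax and 9 of 11 TALE genes were detected. Over all genes this share was 41.9%, so that the shares called do not compare like sets. CBX2 was 5.88-fold, RBBP4 5.14-fold, MTF2 3.21-fold and JARID2 2.90-fold lower in SH-EP2, and CBX7 was 4.95-fold higher (2.31, adjusted p = 1.56e-05). Trithorax genes counted 6 lower and 2 higher, with MEN1 2.18-fold lower and DOT1L 4.90-fold higher (2.29, adjusted p = 0.000336).

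A list of 18 genes with inputs to HOX clusters held retinoid genes together with CDX1, CDX2, CDX4 and GDF11. Of the 18, 6 were higher and 3 lower in SH-EP2 control cells, beside 14.2% and 16% of all genes. CYP26B1, which degrades retinoic acid, was at least 89.7-fold and ALDH1A1, which makes it, at least 52.5-fold higher in SH-EP2. ALDH1A3, another retinoic acid-producing enzyme, was at least 64.6-fold lower in SH-EP2. CRABP2, a retinoic acid carrier, was 22.2-fold higher in SH-EP2 (11.57 against 7.10). It fell with the TRPM7 shRNA in both lines, by 1.90 in SH-SY5Y (adjusted p = 1.24e-08) and by 0.56 in SH-EP2 (adjusted p = 0.0111), and the interaction was -1.34 (adjusted p = 0.000128). RARB, a retinoic acid receptor, fell by 2.49 in SH-SY5Y (adjusted p = 5.27e-06), at least 2.96-fold to undetected. Of 12 other genes of the homeobox class to which HOX belongs, 0 were called with the TRPM7 shRNA in either line. Over all genes 2.58% were called in SH-SY5Y and 3.68% in SH-EP2, so that 0 in this list is near the background. At an unadjusted p under 0.05 there were 0 in SH-SY5Y and 2 in SH-EP2, where 12.7% and 14% of all genes passed. EN1 was the 1 gene of the 12 called between the control lines (2.87, at least 2.72-fold higher in SH-EP2), where 30.1% of all genes were called. The part of these partners and regulators in the HOX values was not tested.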

How the data were processed

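Per the labels, 8 samples of total RNA were hybridized to Illumina HumanHT-12 v4 arrays, and the authors extracted bead signal intensities and a detection p-value per probe in GenomeStudio 2011.1. The deposited intensities of 47322 probes are on a linear scale and not normalized, and the deposited detection p-values compare a probe with negative control beads. The methods of the study name Robust-Multi-Array normalization. Samples were grouped by cell line and shRNA.

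Here background was removed by the RMA model, all 8 arrays were set to common quantiles, and log2 was taken without a filter. The resulting log2 values, computed from the deposited intensities, were fitted in limma 3.58.1 with statmod 1.5.0 under R 4.3.3, with 1 mean per group for 4 groups, a variance prior that followed intensity (eBayes), and Benjamini-Hochberg adjustment over all probes. The pipeline was tested on simulated data. With 2 arrays per group the number of arrays limits the precision. Replicate numbers did not pair the arrays (correlation of replicate differences -0.111 in SH-SY5Y and -0.00447 in SH-EP2 over 14577 probes). Percentages of all genes called use 1 probe per gene, the brightest, for 31426 symbols.

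The members and lists were chosen with earlier results of these data known. Genes named were TRPM7, HOX genes called in any comparison and detected on both arrays of the brighter group with no overlap between the groups, their neighbors, and up to 4 genes by adjusted p in each other list. Other HOX genes named singly, CBX7 and DOT1L were chosen after their values were seen. The RefSeq tables served for names, neighbor order and promoters. Alternatives were other background corrections, median scaling, a filter, other variance priors, the mean over probes, a replicate block, each line alone and leaving out each array. Some genes were counted in the totals but are not reported here by name or drawn.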

Additional observations from a re-analysis of the deposited data

Results flagged for a closer look

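By the interaction test in limma, the effect of the TRPM7 shRNA differed between the lines for 0 of the 39 HOX genes. It differed for 2 of 11 TALE genes and for 2 of the 18 retinoid and CDX genes, where 1.78% of all genes were called. MEIS3, RARB and CRABP2 were among them. The effect in SH-SY5Y minus that in SH-EP2 was 1.84 for MEIS3 (adjusted p = 0.0237), which changed by 0.75 in SH-SY5Y and -1.09 in SH-EP2. It was -2.17 for RARB (adjusted p = 0.00206), with changes of -2.49 and -0.32, and -1.34 for CRABP2 (adjusted p = 0.000128), with changes of -1.90 and -0.56. With 2 arrays per group, no single array could be tested as standing apart.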

How the results depend on the processing

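Of 39 changes or differences of named HOX genes, 0 reversed in any alternative run and 24 kept the call in all of them, 13 of 19 between control lines, 11 of 16 between TRPM7 shRNA lines and 0 of 4 with the TRPM7 shRNA in SH-EP2. The count of 4 in SH-EP2 was 1 with eBayes without an intensity trend, 0 by a test per probe without eBayes, 2 with the mean over all probes of a gene, 3 with the replicate block, which lost HOXA2, and 1 to 4 with 1 array left out. It was 1 without either control array or TRPM7 shRNA replicate 2 and 2 without TRPM7 shRNA replicate 1. With normexp, with no background correction and with SH-EP2 fitted alone it was 6, HOXC13 (lower) and HOXB4 (higher) being gained. The interaction gave 1 gene with normexp (HOXD1) and 2 with no background correction (HOXC13 and HOXD1), and otherwise 0, also without any 1 array. In SH-SY5Y every alternative gave 0. The counts between the lines ranged from 16 to 18 in control and from 13 to 16 in TRPM7 shRNA cells with 1 array left out, and were 18 and 16 with the replicate block. A crossed replicate block in SH-SY5Y, chosen after seeing the data, gave 0, 4, 0, 19 and 16. The causes of these shifts were not tested, other than fewer arrays where 1 was left out. HOXB6, HOXA13 and HOXD13 lost the control line call in 5, 6 and 12 alternatives. At a detection p under 0.01, 10 genes were detected on both arrays in each SH-SY5Y group, and 19 in control and 17 in TRPM7 shRNA SH-EP2 cells. Signals near background limit what can be said of the 11 genes detected on no array.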
